A study of Homo sapiens with 18 samples.

Results

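The genes described here are 9 genes of cytokine receptor signalling and its feedback: the inhibitors CISH, SOCS1, SOCS2 and SOCS3, the transcription factors STAT3, STAT5A and STAT5B, the kinase gene PIM1 and the receptor gene OSMR. They were selected by symbol from the 61487 gene identifiers of the count table, and the set was chosen by a measured value, since CISH had been seen raised with the SRF-PDGFRB construct. Every value of CISH in that construct is therefore a description here and carries no test. RNA was measured in MSC-hTERT, a human mesenchymal stem cell line immortalized with telomerase, in 6 groups of 3 libraries. The groups carried pMSCV (a retroviral vector, taken as the control), SRF (serum response factor, a transcription factor), or the fusions SRF-PDGFRB, SRF-RELA, SRF-FOXO1 and SRF-ICA1L. All groups share the hTERT immortalization and a medium with serum, FGF-2, heparin and ascorbic acid, so growth factors were present in the controls too. The labels do not say which parts of each partner a fusion keeps, whether PDGFRB retains its kinase domain, how strongly the constructs are expressed as protein, or whether the 3 libraries of a group are separate cultures. The p-values therefore measure only the spread between these libraries, which may be technical.

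Cytokines such as those of the interleukin-6 family, growth hormone and interferons bind receptors that carry Janus kinases (JAKs). The JAKs phosphorylate STAT proteins, which then move to the nucleus and switch on target genes. CISH and the SOCS genes are themselves STAT targets, and their proteins bind the receptor or the kinase and dampen the signal, which makes their transcripts a common readout of the pathway. CISH and SOCS2 are classical STAT5 targets, SOCS3 follows STAT3, and SOCS1 is induced by interferons. Receptor tyrosine kinases such as PDGFRB, the receptor for platelet-derived growth factor on mesenchymal cells, can also phosphorylate STATs. None of these phosphorylation steps was measured; the data are RNA levels.

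Totals ran from 19362319 to 29806771 counts per library. Levels are given as CPM, a library's count of a gene scaled to its total. A count of at most 3 was treated as not detected, which is 0.1006 CPM in the deepest library and covers counting error only. All 9 genes exceeded that floor in 18 of 18 libraries and all 9 passed the filter on low counts that left 18544 genes. The mesenchymal markers THY1, NT5E and ENG summed to between 573.3 and 982.1 CPM in every library, whereas CD3E stayed at 3 counts or fewer. The 4 haematopoietic markers PTPRC, CD34, CD14 and CD3E together gave 0.921 to 4.09 CPM, with 1.18 to 2.38 in SRF-PDGFRB, within the range of the other groups. The 3 endothelial markers (PECAM1, CDH5, VWF) gave 13.1 to 19.4 CPM in SRF-PDGFRB against 6.42 to 28.4 elsewhere. THY1 was lower in SRF-PDGFRB than in SRF-ICA1L (log2 fold change -2.06, SE 0.30, edgeR adjusted p = 0.0043) and SRF-FOXO1 (-1.49, SE 0.29, adjusted p = 0.027). Those fusions were themselves above pMSCV, by 1.91 (SE 0.29, adjusted p = 0.0068) and 1.35 (SE 0.29, adjusted p = 0.041). In SRF-PDGFRB it differed by -0.14 (SE 0.29) from pMSCV and by -0.27 (SE 0.29, adjusted p = 0.73) from SRF. The part of THY1 in the results below was not tested. As a check of the labels against pMSCV, SRF itself rose by 2.04 (SE 0.23, adjusted p = 0.0018) on the log2 scale in SRF-PDGFRB. PDGFRB differed by 0.73 (SE 0.23) there and did not pass the test. The SRF-PDGFRB libraries had 525.6 CPM of PDGFRB or more, above pMSCV (at most 502.2 CPM) but overlapping SRF (up to 621.4 CPM). FOXO1 was not higher in the libraries labelled SRF-FOXO1 (-0.30, SE 0.36), although SRF was (1.66, SE 0.23, adjusted p = 0.0051), so SRF-FOXO1 stands below for the libraries so labelled.

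The sequence before the gene start is shown first for CISH and SOCS1, since both were higher in SRF-PDGFRB than in every other group and their upstream sequences differ. STAT5 and most other STATs bind palindromes of the form TTCNNNGAA, and interferon-driven factors bind repeats of GAAA. The 250 bases before each start annotated in RefSeq were searched, on assembly GRCh38.p14. There 8 of the 9 genes had an entry (11 windows) and SOCS2 did not. Not all of these starts match the GENCODE gene starts given below. The STAT5B window (chr17:42276392-42276641) lay inside its GENCODE gene. Neither SOCS3 window (chr17:78360926-78361175 and chr17:78359668-78359917) adjoined the GENCODE start at 78360077. TTCNNNGAA reads the same on both strands. CISH held 4 matches and the other 7 genes held 0. Among all 35116 windows of the same length, 6.57% held at least 1 match and 0.0142% at least 4. A pair of GAAA runs with 2 bases between them, searched on both strands after the sequences had been seen, matched SOCS1 at 1 place and 3.02% of all windows. The stretches below are printed 5′ to 3′ in the direction of transcription, with the matched motif in capitals; they lie on the minus strand, at chr3:50611991-50612020, chr3:50611876-50611905 and chr16:11256298-11256327.
CISH, upstream pair: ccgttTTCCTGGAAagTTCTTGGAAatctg
CISH, downstream pair: ggTTCTAGGAAgacgctgcTTCCGGGAAgg
SOCS1: cgccaccgcgGAAAGAGAAAccaaaagtgg
Counted from the RefSeq start, the CISH matches begin at positions -241, -230, -129 and -112 and the SOCS1 match at -113. A match of letters is no evidence that a factor was bound, and the absence of a match says only that the letters are not in that window.

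CISH, the cytokine-inducible SH2 protein that blocks STAT5 docking at receptors (chr3:50606490-50611831, minus strand, GENCODE release 29 on GRCh38), was a rare transcript outside SRF-PDGFRB. It measured 3.05, 3.83 and 3.39 CPM in the pMSCV libraries numbered 1, 2 and 3, and 3.04, 5.16 and 2.85 CPM in SRF. It measured 7.97, 11.2 and 10.1 CPM in SRF-PDGFRB. All 3 SRF-PDGFRB libraries lay above the other 15, whose highest value was 5.16 CPM in SRF replicate 2. SRF-FOXO1 gave 2.75, 3.21 and 3.84 CPM, SRF-ICA1L 4.16, 4.62 and 3.80 CPM, and SRF-RELA 3.42, 4.28 and 4.18 CPM. Those 3 fusions overlapped pMSCV and SRF. The fitted log2 fold change of CISH in SRF-PDGFRB was 1.51 (SE 0.23) against pMSCV and 1.37 (SE 0.23) against SRF. Against the other fusions it was between 1.10 (SE 0.23, SRF-ICA1L) and 1.495 (SE 0.23, SRF-FOXO1). In bulk RNA, more transcript per cell and a larger share of expressing cells cannot be told apart. Within a replicate number the ratio of SRF-PDGFRB to pMSCV was 2.62, 2.93 and 2.97, so the 3 ratios lay closer together than the levels did.

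Among the comparisons that do not involve SRF-PDGFRB, the largest for CISH was SRF-ICA1L against pMSCV, at a log2 fold change of 0.41 (SE 0.23, adjusted p = 0.57, edgeR). The SRF-ICA1L library exceeded the pMSCV library of its number in 3 of 3 cases, by 1.365, 1.207 and 1.119 times. The difference did not pass the test. CISH overlaps MAPKAPK3, a kinase gene on the opposite strand, and whether reads were counted by strand is not given in the sources used here. MAPKAPK3 had a log2 fold change of 0.09 (SE 0.10) in SRF-PDGFRB against pMSCV.

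SOCS1, which inhibits JAKs directly and is best known as a brake on interferon signalling (chr16:11254405-11256200, minus strand), was also highest in SRF-PDGFRB. It measured 9.12, 13.9 and 21.0 CPM there, against 2.94, 3.40 and 7.45 CPM in pMSCV and 5.12, 5.24 and 8.51 CPM in SRF. The lowest SRF-PDGFRB library stood just above the highest of the other 15, at 8.51 CPM in SRF replicate 3, so the groups did not overlap but the margin was small. The library numbered 3 was highest in every group except SRF-FOXO1: SRF-ICA1L gave 4.47, 3.79 and 5.76 CPM, SRF-RELA 4.75, 4.28 and 7.52 CPM. SRF-FOXO1, at 6.21, 3.25 and 5.64 CPM, had its highest value in the library numbered 1. The log2 fold change of SRF-PDGFRB was 1.18 (SE 0.36) against SRF, 1.46 (SE 0.37) against SRF-FOXO1, 1.53 (SE 0.37) against SRF-ICA1L and 1.35 (SE 0.36) against SRF-RELA. None passed the edgeR quasi-likelihood test across all genes, with Benjamini-Hochberg adjusted p of 0.23, 0.079, 0.069 and 0.31.

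SOCS2, a regulator of growth hormone receptor turnover and a STAT5 target (chr12:93569814-93583487, plus strand), showed the largest differences of the 9 genes. It measured 17.7, 36.5 and 63.3 CPM in SRF-PDGFRB, against 3.82, 10.9 and 11.4 CPM in pMSCV and 2.26, 7.15 and 12.5 CPM in SRF. The highest of the other 15 libraries was SRF-RELA replicate 3 at 14.3 CPM, below the lowest SRF-PDGFRB library. Within SRF-PDGFRB the level spanned 17.7 to 63.3 CPM, and the libraries numbered 1 were lowest in all 6 groups. The other fusions gave 5.13, 6.62 and 12.4 CPM (SRF-FOXO1), 3.33, 5.59 and 11.5 CPM (SRF-ICA1L) and 3.20, 3.65 and 14.3 CPM (SRF-RELA). The log2 fold change of SRF-PDGFRB was 2.37 (SE 0.73) against SRF, 2.19 (SE 0.73) against SRF-FOXO1, 2.41 (SE 0.73) against SRF-ICA1L and 2.42 (SE 0.73) against SRF-RELA. The edgeR adjusted p-values were 0.23, 0.20, 0.17 and 0.51, so none passed. Leaving out 1 library moved the value most against SRF-RELA, to 3.43 without SRF-RELA replicate 3 and 1.93 without SRF-PDGFRB replicate 3. Against SRF it was 3.02 without SRF replicate 3 and 1.88 without SRF-PDGFRB replicate 3.

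**Figure D1:**
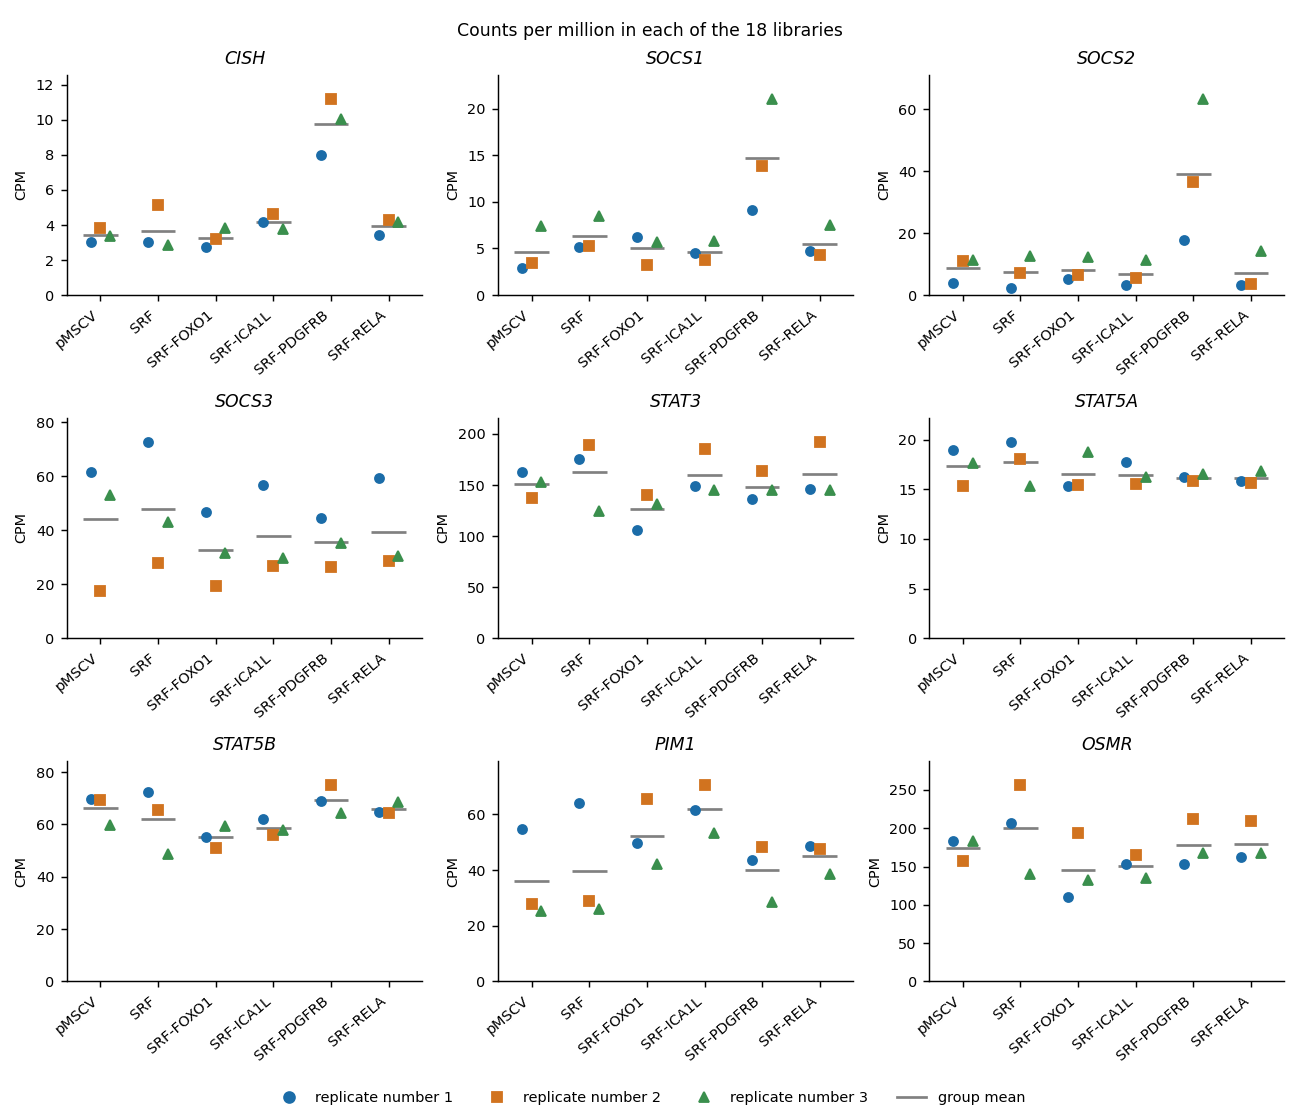
CPM (vertical axes, linear from 0) of the 9 genes in the 18 libraries by construct; marker shape and colour give the replicate number and grey lines the group means. CISH, SOCS1 and SOCS2 are higher in the 3 SRF-PDGFRB libraries than in the other 15, while SOCS3 is lowest in the library numbered 2 in all 6 groups.

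The spread of SOCS1 and SOCS2 followed the replicate number, and comparing libraries of the same number narrowed it. Relative to the median of the other 5 libraries with its number, the SRF-PDGFRB library had 5.31, 5.51 and 5.08 times the SOCS2 level, although its own CPM differed between numbers. The same ratios were 2.62, 2.62 and 2.65 for CISH and 1.92, 3.66 and 2.82 for SOCS1. SRF-PDGFRB was the highest of the 6 groups in 3 of 3 numbers for each of these genes. For SOCS3, STAT3, STAT5A, PIM1 and OSMR it was highest in 0 of 3, and for STAT5B in 1 of 3.

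**Figure D2:**
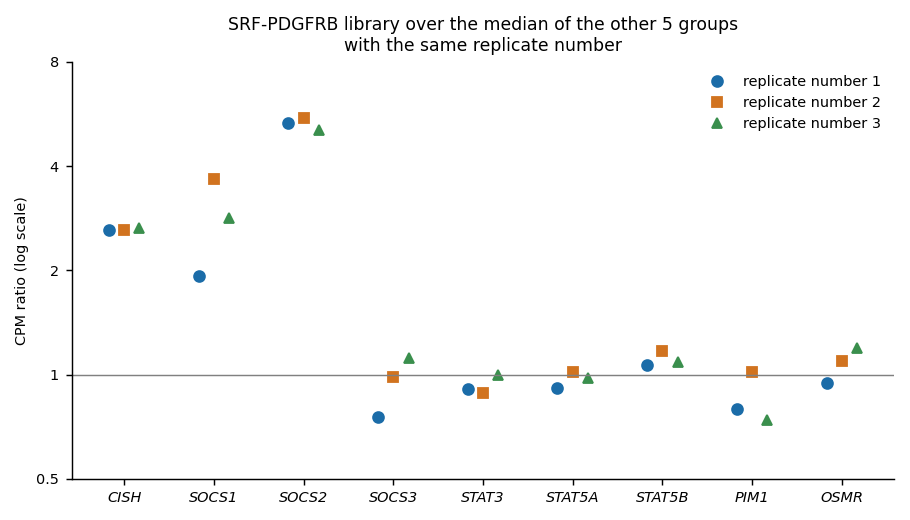
Ratio of the CPM in each SRF-PDGFRB library to the median of the other 5 groups' libraries with the same replicate number (log scale; the line marks a ratio of 1), for the 9 genes. CISH, SOCS1 and SOCS2 lie between 1.92 and 5.51, and the other 6 genes between 0.740 and 1.19.

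With the replicate number as a block in the model, SOCS1 and SOCS2 passed the test in each comparison of SRF-PDGFRB. For SOCS1 the log2 fold change was 1.17 (SE 0.22) against SRF, 1.41 (SE 0.22) against SRF-FOXO1, 1.499 (SE 0.22) against SRF-ICA1L and 1.34 (SE 0.22) against SRF-RELA. The blocked edgeR adjusted p-values of SOCS1 were 0.012, 0.0020, 0.0012 and 0.0059. For SOCS2 it was 2.46 (SE 0.26), 2.11 (SE 0.25), 2.41 (SE 0.26) and 2.51 (SE 0.26) in the same order. The blocked edgeR adjusted p-values of SOCS2 were 0.00068, 0.00033, 0.00011 and 0.00013. The block left the estimates nearly where they were and reduced the standard error of SOCS2 from 0.73 to about 0.26. These comparisons share their SRF-PDGFRB libraries with the contrast the genes were chosen on, and they are not independent of each other. Against pMSCV, the contrast of the choice, the estimates without and with the block were 1.66 (SE 0.37) and 1.70 (SE 0.22) for SOCS1, and 2.16 (SE 0.72) and 2.11 (SE 0.25) for SOCS2.

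**Figure D3:**
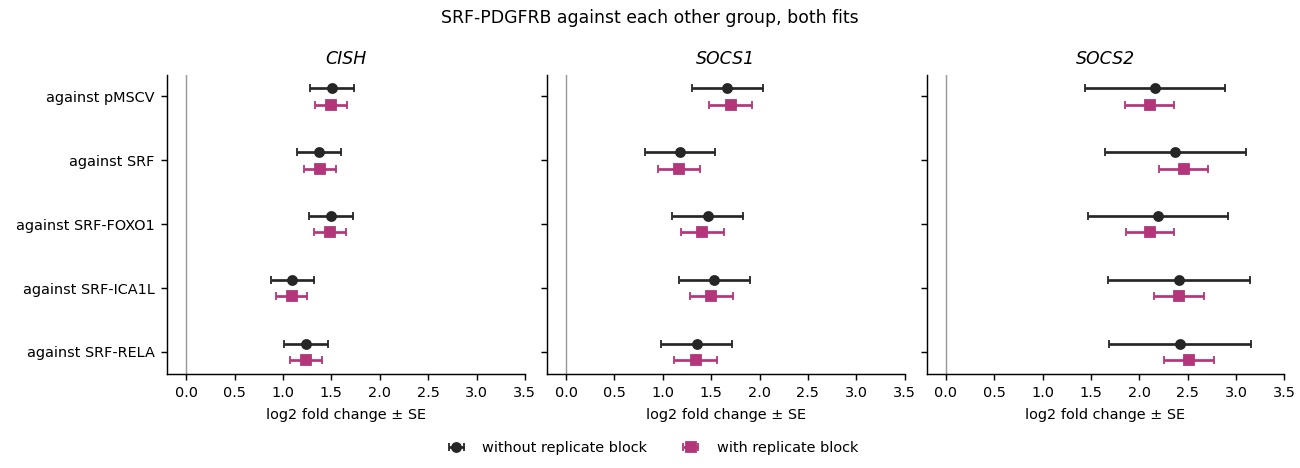
Log2 fold change with its standard error for CISH, SOCS1 and SOCS2 in SRF-PDGFRB against each of the other 5 groups, fitted without (black circles) and with (magenta squares) the replicate number as a block. The estimates agree closely between the fits and the bars of SOCS2 shrink from 0.73 to about 0.26; the CISH values and the pMSCV contrast are descriptions.

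Neighbouring transcripts bear on how SOCS1 and SOCS2 were counted. SOCS2 shares its locus with the antisense transcript SOCS2-AS1, which measured 1.36, 3.78 and 6.46 CPM in SRF-PDGFRB and at most 1.45 CPM in the other 15 libraries. Its log2 fold change in SRF-PDGFRB against SRF was 2.53 (SE 0.70, adjusted p = 0.19), close to that of SOCS2, and the share of reads each transcript took from the other was not tested. SOCS1 overlaps RMI2, a gene of DNA repair on the opposite strand. RMI2 ranged from 5.24 to 15.6 CPM and had a log2 fold change of 0.36 (SE 0.34, adjusted p = 0.70, edgeR) in SRF-PDGFRB against SRF.

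CISH was chosen for its difference in SRF-PDGFRB, so the counts of calls leave it out. Of the other 8 genes, the test without a block called 0 in each of the 5 comparisons of SRF-PDGFRB. The share of all 18544 genes called was 0.0324% against pMSCV, 0.146% against SRF, 0.717% against SRF-FOXO1, 0.820% against SRF-ICA1L and 0.162% against SRF-RELA. With the block 2 of 8 were called in each of the 5, SOCS1 and SOCS2, beside 0.178%, 2.34%, 4.35%, 4.76% and 0.847% of all genes in the same order. Nothing is read from these counts against pMSCV, the contrast of the choice. Without CISH, 2 of 8 genes, the same pair, had all 3 SRF-PDGFRB libraries above the other 15. As a description, 0.820% of tested genes had that order. The median log2 fold change of all 9 genes in SRF-PDGFRB was 0.06 against pMSCV, -0.02 against SRF, 0.19 against SRF-FOXO1, 0.12 against SRF-ICA1L and -0.05 against SRF-RELA. The medians over all tested genes lay between -0.02 and 0.003 in these comparisons.

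In the 7 comparisons without SRF-PDGFRB, 0 of 9 genes were called, with or without the block. The share of all genes called there without the block against pMSCV was 0.0270% (SRF), 0.928% (SRF-FOXO1), 0.469% (SRF-ICA1L) and 0.183% (SRF-RELA). Against SRF it was 0.388% (SRF-RELA), 0.782% (SRF-ICA1L) and 1.36% (SRF-FOXO1). With the block the shares against pMSCV were 0.243% (SRF), 0.971% (SRF-RELA), 4.66% (SRF-ICA1L) and 7.03% (SRF-FOXO1), and against SRF 1.73% (SRF-RELA), 4.73% (SRF-ICA1L) and 7.23% (SRF-FOXO1). At an unadjusted p under 0.05 without the block the count was 1 in SRF-ICA1L against pMSCV, which was PIM1, and 0 in the other 6; the DESeq2 Wald test also called 0 of 9 in each of the 7.

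**Figure D4:**
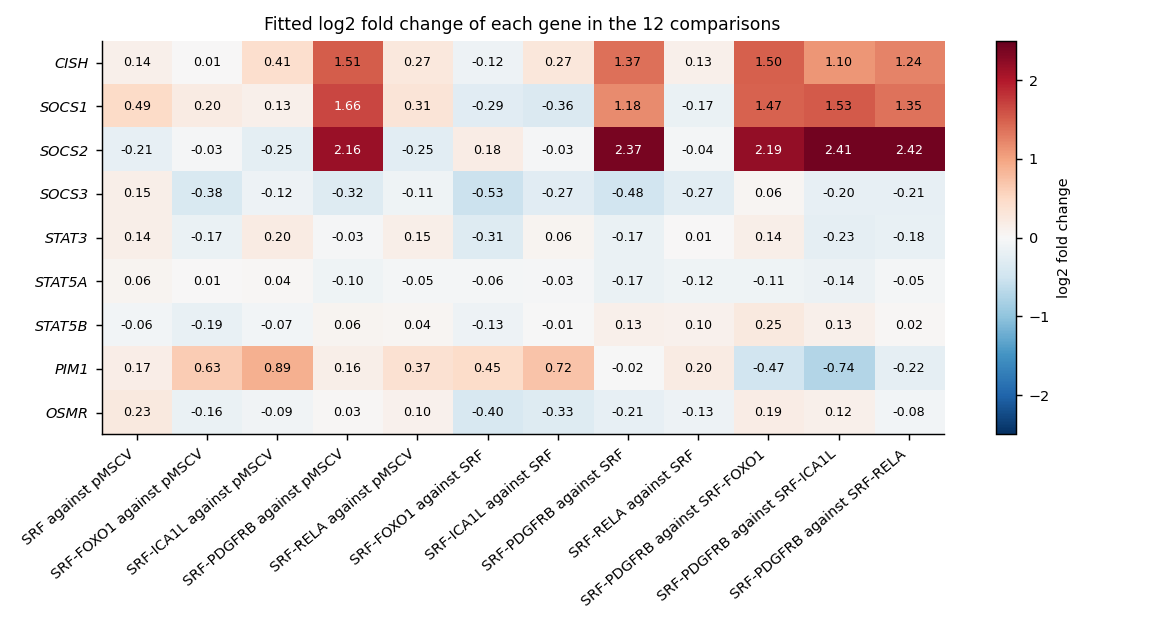
Fitted log2 fold change of the 9 genes (rows) in the 12 comparisons (columns) without a block; red is higher in the first-named group and blue lower. The values above 1 are those of CISH, SOCS1 and SOCS2 in the 5 comparisons of SRF-PDGFRB, and the largest elsewhere is 0.89, of PIM1 in SRF-ICA1L against pMSCV.

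SOCS3, the inhibitor that binds the IL6ST receptor chain and limits STAT3 signalling (chr17:78356778-78360077, minus strand), followed the replicate number. It measured 61.6, 17.5 and 53.0 CPM in pMSCV, 72.6, 28.0 and 43.1 CPM in SRF, and 44.6, 26.4 and 35.4 CPM in SRF-PDGFRB. The library numbered 1 was highest and the library numbered 2 lowest in these groups. The remaining fusions had the same order, with 46.7, 19.4 and 31.7 CPM in SRF-FOXO1, 56.7, 26.9 and 29.8 CPM in SRF-ICA1L and 59.3, 28.6 and 30.5 CPM in SRF-RELA. The medians over the 6 groups were 58.0 CPM for number 1, 26.6 CPM for number 2 and 33.6 CPM for number 3. The log2 fold change of SRF-PDGFRB against SRF was -0.48 (SE 0.48, adjusted p = 0.72), and -0.39 (SE 0.21, adjusted p = 0.33) with the block. Its mean of 35.5 CPM in SRF-PDGFRB was the fifth of the 6 groups.

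STAT3, the main transducer of interleukin-6 family cytokines (chr17:42313324-42388568, minus strand), ranged from 106.4 to 191.9 CPM. Its 3 SRF-PDGFRB libraries lay between 136.2 and 164 CPM, inside the range of the other 15. The lowest group mean was 126.2 CPM ± 17.7 (SD, n = 3) in SRF-FOXO1 and the highest 162.8 CPM ± 34.1 (SD, n = 3) in SRF. The neighbours in that order all overlapped. Its largest log2 fold change in the 12 comparisons was -0.31 (SE 0.19, adjusted p = 0.48), in SRF-FOXO1 against SRF.

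STAT5A and STAT5B, closely related transducers of growth hormone, prolactin and several interleukins, lie close to STAT3 on chromosome 17 (STAT5A at 42287547 to 42311943, plus strand; STAT5B at 42199168 to 42276707, minus strand). STAT5A held the narrowest range of the 9 genes, 15.3 to 19.7 CPM. It measured 16.2 CPM ± 0.37 (SD, n = 3) in SRF-PDGFRB and 17.3 CPM ± 1.86 in pMSCV. STAT5B ranged from 48.6 to 74.9 CPM, and its mean was highest in SRF-PDGFRB at 69.4 CPM ± 5.28 (SD, n = 3), next to 66.4 CPM ± 5.64 in pMSCV. These groups overlapped, and the log2 fold change of STAT5B was 0.06 (SE 0.13) against pMSCV and 0.13 (SE 0.13, adjusted p = 0.71) against SRF. Per kilobase of annotated exon, pMSCV cells held 10.3 CPM of STAT5B, 3.01 CPM of STAT5A and 17.1 CPM of STAT3, so STAT5B was the more abundant STAT5 transcript on that scale. The paralogs are near-identical over much of their coding sequence, and how reads shared by both were counted is not given in the sources used here.

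PIM1, a serine kinase gene that STAT3 and STAT5 switch on in blood cells (chr6:37170203-37175426, plus strand), had its highest levels in other constructs than SRF-PDGFRB. It measured 61.7, 70.4 and 53.4 CPM in SRF-ICA1L and 49.6, 65.4 and 42.3 CPM in SRF-FOXO1. In pMSCV it measured 54.8, 27.7 and 25.4 CPM, in SRF 64.0, 29.1 and 26.1 CPM. Those 2 groups shared a high library numbered 1, which placed them within the range of the fusions. SRF-PDGFRB gave 43.6, 48.4 and 28.6 CPM and SRF-RELA 48.7, 47.6 and 38.6 CPM. The log2 fold change of SRF-ICA1L against pMSCV was 0.89 (SE 0.36, adjusted p = 0.38), and 0.95 (SE 0.27, adjusted p = 0.062) with the block. It did not pass in either fit. For SRF-PDGFRB against SRF-ICA1L it was -0.74 (SE 0.36, adjusted p = 0.46), which places PIM1 opposite in sign to CISH, SOCS1 and SOCS2 in that comparison.

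OSMR, the receptor chain for oncostatin M (chr5:38845858-38945596, plus strand), ranged from 110.2 to 255.9 CPM. Its SRF-PDGFRB libraries had 153.8 CPM or more and overlapped every other group. The group means ran from 145.7 CPM ± 43.4 (SD, n = 3) in SRF-FOXO1 to 200.9 CPM ± 57.9 in SRF. No comparison passed, the largest being SRF-FOXO1 against SRF with a log2 fold change of -0.40 (SE 0.24, adjusted p = 0.48). OSMR overlaps RICTOR on the opposite strand.

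Leaving out CISH, the order of the groups thus had 1 step without overlap for 2 genes. For SOCS1 and SOCS2, SRF-PDGFRB came first and did not overlap the next group (SRF and pMSCV respectively), and all lower neighbours overlapped. The SOCS1 step was small, from 9.12 to 8.51 CPM. Without the block neither step passed the edgeR test (adjusted p = 0.23 for SOCS1 against SRF), while with the block both did. The SOCS2 step, against pMSCV, is the contrast of the choice. As a description, 0.820% of tested genes had all 3 SRF-PDGFRB libraries above the other 15. CISH had the same order, with SRF-ICA1L next, but its first place follows from its choice. For the other 6 genes every pair of neighbouring groups overlapped.

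The rest of the pathway was described from a list of 64 genes in 7 roles, of which 55 passed the filter on low counts. The receptor chains and kinases that the 9 genes act on were present. IL6ST, the shared signalling chain of the interleukin-6 family, had 267.6 CPM ± 21.7 (SD, n = 3) in SRF-PDGFRB and 245.8 CPM ± 35.2 in pMSCV. LIFR, which pairs with IL6ST, had 30.9 CPM ± 9.44 and 32.9 CPM ± 7.01. JAK1 had 225.2 CPM ± 9.72 and 227.0 CPM ± 11.02, and JAK2 23.7 CPM ± 1.21 and 22.0 CPM ± 1.53. None of these 4 genes passed the test in a comparison of SRF-PDGFRB. GHR, the growth hormone receptor, was low, with at most 0.783 CPM and more than 3 counts in 15 of 18 libraries.

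Of the ligands, IL6 had 11.4 CPM ± 4.26 (SD, n = 3) in SRF-PDGFRB and 14.4 CPM ± 11.8 in pMSCV, and LIF 27.2 CPM ± 4.64 and 34.5 CPM ± 17.98. OSM exceeded 3 counts in 2 of 18 libraries and EPO in 0. STAT6, the transducer of interleukin-4, had 244.3 CPM ± 19.0 (SD, n = 3) in SRF-PDGFRB, 270.2 CPM ± 9.70 in SRF and 239.5 CPM ± 26.6 in pMSCV, and did not pass a test of SRF-PDGFRB.

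In SRF-PDGFRB against SRF, 2 of the 55 genes were called higher and 0 lower, beside 0.146% of all genes, and both belong to the 6 interferon-induced genes of the list. The count was 1 against pMSCV, SRF-FOXO1 and SRF-RELA, 2 against SRF-ICA1L and 0 in the 7 comparisons without SRF-PDGFRB. That list was written with earlier results of these data known. No ligand (0 of 9), receptor (0 of 11), kinase (0 of 4), other STAT (0 of 4), inhibitor (0 of 12) or STAT3 and STAT5 target (0 of 9) was called there without the block. In the blocked fit 1 of the 12 inhibitors was called higher in SRF-PDGFRB against SRF-FOXO1, and 1 against SRF-ICA1L. Against SRF-ICA1L, 1 of the 9 ligands was also called, and it was lower in SRF-PDGFRB. The shares of all genes called there were 4.35% (SRF-FOXO1) and 4.76% (SRF-ICA1L). With the block 5 of the 55 were called against SRF, beside 2.34% of all genes: 4 interferon-induced genes and 1 of the 11 receptors, IL7R. IL7R, the interleukin-7 receptor chain, had 6.93, 6.14 and 8.88 CPM in SRF-PDGFRB against 0.779, 1.07 and 2.01 CPM in SRF. It overlapped SRF-ICA1L (at most 7.50 CPM) and SRF-RELA (at most 12.7 CPM). Its log2 fold change against SRF was 2.46 (SE 0.72, adjusted p = 0.21) without the block and 2.55 (SE 0.56, adjusted p = 0.033) with it. The median log2 fold change was 1.01 for the 6 interferon-induced genes, -0.16 for the 9 STAT3 and STAT5 targets and 0.08 for the 12 inhibitors, against -0.01 for all genes. CXCL9, an interferon-induced chemokine, had 233, 36 and 60 counts in SRF-PDGFRB and at most 4 counts in any other library (edgeR adjusted p = 0.021 against SRF). GBP1, an interferon-induced GTPase, had 134.4, 119.7 and 109.9 CPM in SRF-PDGFRB against 67.8, 48.8 and 75.8 CPM in SRF, a difference of 0.88 in log2 (SE 0.15, adjusted p = 0.029).

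CXCL10, a chemokine related to CXCL9, had 59.9, 29.9 and 40.9 CPM in SRF-PDGFRB and at most 4.87 CPM elsewhere. Against SRF its log2 fold change was 4.92 (SE 0.91, adjusted p = 0.052), and 4.95 (SE 0.84, adjusted p = 0.012) with the block. Without the block CXCL10 was called against SRF-ICA1L, at 4.85 (SE 0.91, adjusted p = 0.022). CIITA, the master activator of class II antigen presentation genes, had 2.54, 2.33 and 2.74 CPM in SRF-PDGFRB and at most 1.42 CPM elsewhere. Its log2 fold change against SRF was 1.14 (SE 0.30, adjusted p = 0.16), and 1.17 (SE 0.24, adjusted p = 0.020) with the block. Without the block CXCL9 was also called against SRF-RELA, SRF-FOXO1 and SRF-ICA1L (edgeR adjusted p = 0.0094, 0.0082 and 0.0085), as the only one of the 55 against SRF-FOXO1 and SRF-RELA. The call of CXCL9 against SRF was lost without any of the 3 SRF libraries or SRF-PDGFRB replicate 1, and that of GBP1 was made only when SRF replicate 3 was the library left out. Against SRF-RELA the call of CXCL9 was lost without any of the 3 SRF-RELA libraries, and against SRF-ICA1L without SRF-ICA1L replicate 3, while that of CXCL10 against SRF-ICA1L was made only when SRF-ICA1L replicate 1 was left out.

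Of the 6 interferon-induced genes, 5 had a positive log2 fold change against SRF. GBP2, a GTPase related to GBP1, was the exception, with 147.5, 166.0 and 134.2 CPM in SRF-PDGFRB and 190.1, 157.4 and 167.2 CPM in SRF (-0.24, SE 0.26, adjusted p = 0.75). It was not called in a comparison of SRF-PDGFRB in either fit. IRF1, an interferon-induced transcription factor, had 44.0, 36.3 and 48.8 CPM in SRF-PDGFRB, overlapping SRF at 40.3, 25.1 and 37.3 CPM (0.29, SE 0.19, adjusted p = 0.58). With the block IRF1 was called against SRF-ICA1L, SRF-RELA and SRF-FOXO1 (edgeR adjusted p = 0.0026, 0.023 and 0.015) and not against SRF (adjusted p = 0.18).

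**Figure D5:**
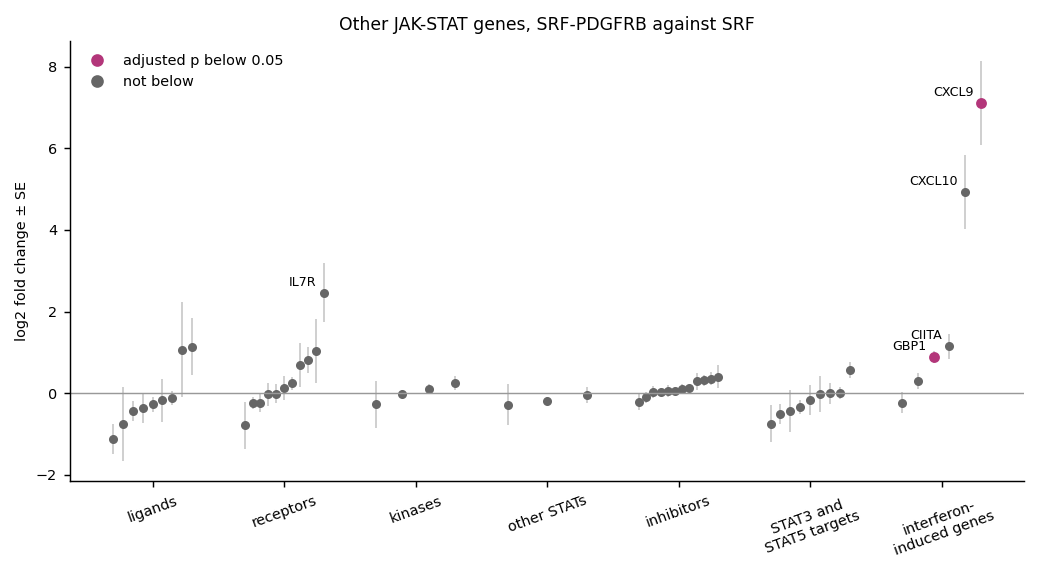
Log2 fold change with its standard error of 54 of the other JAK-STAT genes in SRF-PDGFRB against SRF, without a block, in 7 roles (horizontal axis); magenta points passed the test. CXCL9 and GBP1, both interferon-induced, are the only called genes; the size of the CXCL9 value depends on the prior count, since SRF libraries held at most 2 of its counts.

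The STAT3 and STAT5 targets other than the 9 genes included PIM2, PIM3, BCL2L1, BCL6, CCND1, JUNB and MCL1, and 3 of the 9 tested had a positive log2 fold change in SRF-PDGFRB against pMSCV, 1 of 9 against SRF. With the block these counts were 2 of 9 and 4 of 9. The remaining SOCS genes, SOCS4 to SOCS7, had log2 fold changes between -0.26 and 0.02 against pMSCV. None of these was called in a comparison of SRF-PDGFRB, with or without the block.

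Across the 18 libraries, the genes whose log2 CPM pattern was most like CISH were CIITA (Pearson r = 0.88), ROS1 (0.84), APOL4 (0.84), LAMP3 (0.84) and SORBS2 (0.83). CIITA, ROS1, APOL4 and LAMP3 are, respectively, the activator named above, a receptor tyrosine kinase, an apolipoprotein L and a lysosomal membrane protein. In APOL4 the lowest SRF-PDGFRB library had 6.30 CPM and the highest other library 1.02 CPM, and Spearman's rho was 0.39, so its Pearson correlation rests on the 3 SRF-PDGFRB libraries. The SRF-PDGFRB libraries also lay above all others in CIITA (rho 0.71) and LAMP3 (rho 0.56), and both were low elsewhere. The highest other library had 1.42 CPM of CIITA and 0.456 CPM of LAMP3. The pMSCV mean of LAMP3, 0.0954 CPM, lay near the floor of 3 counts. For SOCS1 the most alike were ALOX5AP (0.85) and SOCS2-AS1 (0.84), and for SOCS2 it was SOCS2-AS1 (0.97).

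SOCS3 was most like KLF4 (r = 0.93) and LINC02577 (0.93), PIM1 like SLC25A25 (0.95) and BHLHE40 (0.92), and OSMR like IL1R1 (0.90) and DENND5A (0.90). STAT3 was most like MRC2 (0.93) and ERCC6 (0.91), STAT5B like REV1 (0.91) and RIPK1 (0.91), and STAT5A like PCF11 (0.76) and CRISPLD1 (0.73). Among the 9 genes, r was 0.67 for CISH and SOCS1, 0.70 for CISH and SOCS2, 0.80 for SOCS1 and SOCS2, and 0.84 for STAT3 and OSMR. Spearman's rho was 0.28, 0.48, 0.71 and 0.84 in that order. The 2 Pearson values of CISH thus rest largely on the 3 SRF-PDGFRB libraries, in which it was chosen. After the mean of each replicate number was removed, the first 3 Pearson values were 0.84, 0.84 and 0.81, with the same libraries included. These correlations share libraries, depth and construct and are given as a description over 18 libraries.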

How the data were processed

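RNA was measured in 18 libraries, 3 for each of 6 constructs. Raw read counts per Ensembl gene, in a column for each library, were deposited by the authors, per the file headers. The submitters' processing notes name FastQC 0.11.8, Trimmomatic 0.39, HISAT2 2.12.1, featureCounts, Subread 2.0.3 and GRCh38; settings, annotation release and use of strand are not given in the sources used here, so reads of overlapping or near-identical genes may be split or merged. Symbols came from a gene name table, and positions from GENCODE release 29. The libraries were made with a stranded mRNA kit, per the labels' protocols.

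Counts were tested with edgeR 4.0.16 in R 4.3.3: filterByExpr with a minimum count of 10 (18544 genes), TMM scaling, a robust quasi-likelihood fit of all 18 libraries with 1 coefficient per group (12 residual degrees of freedom, common coefficient of variation 0.22), two-sided F tests in 12 comparisons, Benjamini-Hochberg adjustment over all tested genes and a threshold of 0.05. The standard error is the absolute log2 fold change over the square root of F. CPM uses totals without TMM factors. The fit was also run on simulated counts of independent libraries with 1 fixed spread and no effect of the replicate number. That run does not cover the pairing described below. Alternatives were other scalings, DESeq2 1.42.0, other filters, fewer groups, libraries left out and a replicate block.

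The labels do not say what a replicate number marks. Deviations from group means correlated above 0.1 in 44 of 45 same-numbered pairs (median 0.38), so the numbers were read from the values as pairing the libraries. The exception, at 0.087, was replicate 1 of SRF and SRF-FOXO1. The median of the 90 other pairs was -0.18. Deviations cancel out within a group, so that negative value largely follows from the same-numbered pairs and adds no evidence of pairing. The blocked fit had 10 residual degrees of freedom and a coefficient of variation of 0.15.

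Members and gene lists were chosen with earlier results of these data known. The genes named are the 9 members, the other pathway genes called in any comparison, a few fixed pathway genes with their levels, and the 5 (CISH) or 2 (other members) most alike by Pearson r of log2 CPM (prior count 2). CIITA, IL7R, IL15, SH2B3 and genes overlapping a member were named after their values were seen. Upstream sequences are RefSeq, GRCh38.p14. A few genes that the rule or a marker list names are not reported here.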

Additional observations from a re-analysis of the deposited data

How the results depend on the processing

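The log2 fold changes of CISH, SOCS1 and SOCS2 in SRF-PDGFRB stayed positive in all 10 other settings and all 6 single omissions of each of the 5 comparisons, between 0.86 and 3.43. Calls differed more between settings. The count of the 9 genes called was 1 in each of these comparisons, and that was CISH alone, a description that carries no test. The counts that follow include CISH where it was called, so no stability of CISH is read from them. The count was 3 in all 5 with the replicate block (CISH, SOCS1 and SOCS2). With the DESeq2 Wald test it was 2 against pMSCV, SRF-FOXO1 and SRF-RELA and 3 against SRF-ICA1L. It was 0 in all 5 with only the 2 groups compared, and 0 without all libraries numbered 1, 2 or 3 (added after seeing the data). Requiring at least 10 counts in every library gave 0 against pMSCV and SRF-RELA. Leaving out single libraries gave 0 to 1. Fewer libraries or groups leave fewer degrees of freedom. For the other settings the cause was not tested. The share of all genes called was taken only for the edgeR fits of all 18 libraries with and without the block. Counts of calls from the other settings, DESeq2 included, have no such share beside them, here and for the other pathway genes below. Whether those settings call more or fewer genes in total is therefore not shown.

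Of the 55 other pathway genes tested, the replicate block called 3 against pMSCV, 5 against SRF, 5 against SRF-FOXO1, 6 against SRF-ICA1L and 3 against SRF-RELA in the SRF-PDGFRB comparisons. The block called 2 in SRF-FOXO1 against pMSCV, 3 in SRF-ICA1L against pMSCV and 1 in SRF-ICA1L against SRF. The shares of all genes called with the block are those given above. The DESeq2 Wald test called 4, 5, 3, 6 and 3 in the SRF-PDGFRB comparisons in the same order, and 1 each in SRF-ICA1L against pMSCV and SRF-RELA against pMSCV and SRF. Requiring at least 10 counts in every library, which removes CXCL9, gave 0, 1, 0, 0 and 0. Without a count filter the counts were 0 against pMSCV and 1 against SRF-ICA1L. Total count scaling gave 2 against SRF-FOXO1 and SRF-RELA. With only the 2 groups compared the count was 0 against pMSCV, SRF and SRF-RELA, and without all libraries of 1 number it was 0 in all 5. Leaving out single libraries gave 0 to 1 in SRF-PDGFRB against pMSCV, SRF and SRF-RELA, 1 to 2 against SRF-FOXO1, 0 to 2 against SRF-ICA1L, and 0 to 1 in SRF-ICA1L against pMSCV. At about 3 CPM CISH rests on 82 to 135 counts in the SRF libraries, which limits its precision; genes such as GHR and OSM lie near the floor of 3 counts.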

Other observations

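With the replicate block, and outside the SRF-PDGFRB comparisons, 2 of the 55 other pathway genes tested were called in both SRF-FOXO1 and SRF-ICA1L against pMSCV. PIM3 was called in SRF-ICA1L alone (log2 fold change -0.44, SE 0.12, edgeR adjusted p = 0.038). IL15, a cytokine that signals through JAK1 and STAT5 in lymphocytes, had 9.17, 9.33 and 10.9 CPM in pMSCV. It had 13.2, 16.5 and 16.2 CPM in SRF-ICA1L, and the libraries labelled SRF-FOXO1 had 11.7, 14.8 and 14.5 CPM. The pMSCV libraries lay below the libraries of both fusions, and also below those of SRF-RELA, at 11.6, 14.2 and 14.0 CPM. SRF, at 9.75, 12.5 and 13.8 CPM, overlapped pMSCV. The blocked log2 fold change against pMSCV was 0.74 (SE 0.11, adjusted p = 0.0015) for SRF-ICA1L and 0.55 (SE 0.11, adjusted p = 0.0090) for SRF-FOXO1. Without the block the edgeR adjusted p-values were 0.078 and 0.15. The share of all genes called with the block was 4.66% (SRF-ICA1L) and 7.03% (SRF-FOXO1), so nothing is read from the number of pathway genes called.

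SH2B3, an adaptor that restrains JAK2, had 253.4, 238.3 and 234.8 CPM in pMSCV. It had 197.5, 98.9 and 122.2 CPM in SRF-ICA1L and 204.4, 109.6 and 138.7 CPM in SRF-FOXO1. All 6 of these libraries lay below the 3 pMSCV libraries. The SRF libraries, at 217.4, 228.2 and 147.1 CPM, also lay below them, while SRF-RELA, at 247.6, 129.6 and 181.4 CPM, overlapped. The blocked log2 fold change was -0.75 (SE 0.18, adjusted p = 0.024) for SRF-ICA1L and -0.66 (SE 0.18, adjusted p = 0.036) for SRF-FOXO1. Without the block the edgeR adjusted p-values were 0.39 and 0.32. In SRF-PDGFRB, SH2B3 had 355.4, 195.0 and 255.7 CPM and overlapped pMSCV.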
